A study of Mus musculus with 272 samples.

Results

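The light fractions of sucrose gradients, fractions 2 to 5 of 10, were compared between germinal vesicle (GV) oocytes and metaphase II (MII) oocytes of the mouse. They make up 24 of the 272 libraries in the series, 12 per stage, and were chosen by stage and fraction number alone. The series covers 8 stages from the GV oocyte to the blastocyst, each with 3 gradients (A, B and C) and 4 transcriptome pools. GV oocytes are arrested in meiotic prophase with an intact nucleus, and MII oocytes have matured and wait for fertilization. Both groups were handled alike. About 100 oocytes per gradient were broken open in a buffer with cycloheximide, which holds ribosomes on their transcripts, and each transcriptome pool held 20 oocytes. The labels name no strain, age or hormone treatment, and nothing in them says that the gradients came from separate animals or collections, so the p-values measure the spread between these samples.

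A transcript sediments further the more ribosomes it carries. Fractions near the top of a gradient hold free transcripts, stored transcripts in ribonucleoprotein particles and transcripts with few ribosomes, and the bottom holds polysomes. Fractions carry numbers but no names in the labels, so calling fractions 2 to 5 light and fractions 6 to 10 heavy follows this convention. A growing oocyte stores many transcripts in a masked state with short poly(A) tails. During meiotic maturation transcription is silent, a set of stored transcripts gains a longer tail and enters polysomes, and many others are deadenylated and lost. RNA was amplified from poly(A) tails, so tail length may enter every value; tail length was not measured and its part in the results was not tested.

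Values are CPM, in which every library is brought to 1 M reads and each gene holds its share of them. The CPM of fractions 2 to 5 was averaged in each gradient, which left 3 values per stage, and changes are MII minus GV on the log2(CPM + 1) scale. CPM is relative to each library's total, so no amount of RNA per oocyte can be read from it. Light libraries held 15.9 to 30.3 M reads in GV and 17.9 to 26.4 M in MII oocytes. Pearson's r across genes between single light libraries of the same fraction and stage ran from 0.83 to 0.956, against 0.504 to 0.92 for heavy fractions. On the heavy side, fraction 10 of MII gradient A stood apart, with r of 0.504 and 0.552 to the other gradients against 0.649 between these, and so did fraction 7 of MII gradient C, with 0.567 and 0.58 against 0.731. All 10 oocyte markers were present, with a summed light level of 16411 to 17508.5 CPM in GV and 21028 to 21970.5 CPM in MII oocytes. Of 15 cumulus and granulosa cell markers 7 were in the table, with a summed light level of 12.4 to 36.3 CPM in GV and 19.6 to 40.5 CPM in MII oocytes. Between 48.6 and 212 CPM of these markers lay in GV heavy means, against 15.3 to 53.5 CPM in MII heavy means.

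The light fractions changed widely during maturation. Among 11520 genes tested with limma, 1410 were called higher in MII oocytes (12.2% of the genes tested) and 2309 lower (20.0%), where a call needs a Benjamini-Hochberg adjusted p under 0.05 and a log2 change of at least 1. The gradients of both stages did not overlap for 1365 of the genes called higher and for 2238 of those called lower. The same gradients made the calls, so these counts add no evidence, and the share over all genes tested is not given here. With all 8 stages in 1 fit the counts were 355 and 719. Among the genes described below the light calls of Fbxw26, Rab3b, Kcng2, Bub1b, Orc6, Mos, Btg4, Cnot7, Oosp2, Bmp15, Zp2, Nlrp4a, Nlrp2, Nlrp5, Zar1, Eif3e and Bc1 were lost. The split depended on scaling. As deposited, 37.9% of the calls were higher, the median change over all genes being -0.12, and after quantile normalization 49.4%, with a median of 0.05. MII gradient C was the highest of the 3 MII gradients for 63.4% of the genes called lower and the lowest for 57.9% of those called higher, so it lay nearer to GV than A and B. Over all genes tested it was the highest for 33.4% and the lowest for 41.5%.

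Genes called lower and genes called higher differed in what their transcriptome levels did. Genes called lower had a median transcriptome change of -1.77, and genes called higher of 0.09, with -0.26 over all genes tested. The transcriptome mean was lower by at least 1 for 1522 of the 2309 genes called lower in the light fractions (65.9%) and for 30.9% of all genes tested. The other 787 genes fell in the light fractions while the transcriptome pools, which are separate libraries, were lower by less than 1, level or higher. For 1026 of the 1410 genes called higher (72.8%) the transcriptome moved by less than 1 either way, and for 202 it was lower by at least 1. These shares describe means and carry no test.

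**Figure D1:**
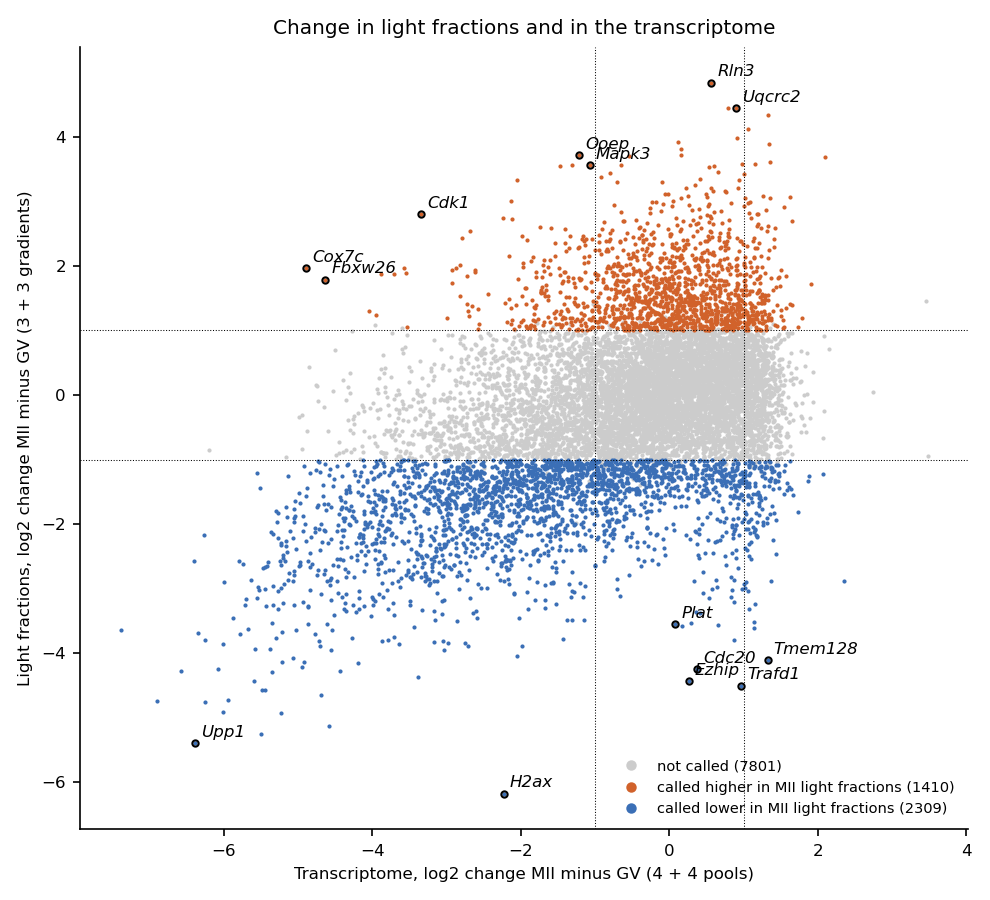
Change of each of 11520 genes from GV to MII oocytes in the light fractions (vertical axis) against the change in transcriptome pools (horizontal axis), both as log2(CPM + 1) differences. The 1410 genes called higher spread around a transcriptome change near 0 and the 2309 called lower lie mostly at negative transcriptome changes.

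Transcripts that fell in the light fractions while their transcriptome level did not included regulators of meiosis. Some of these fell on the heavy side as well. Plat encodes tissue plasminogen activator, a classic example of a transcript stored in GV oocytes and translated during maturation. Its light level was 2806, 2974 and 4750 CPM in GV gradients A, B and C and 241, 272 and 373 CPM in MII gradients. Every MII gradient lay below every GV gradient, a change of -3.55 (SE 0.25, limma adjusted p 3.92e-06). The transcriptome held 1736 CPM in GV and 1828 CPM in MII oocytes (means of 4 pools). Along the gradient, GV oocytes had 5589 ± 1524 CPM of Plat in fraction 4 (SD, n = 3 here and for the fraction values below) and 3428 ± 472 CPM in fraction 10. MII oocytes had 417 ± 144 CPM in fraction 4 and 3679 ± 3094 CPM in fraction 10. That last spread came from gradient A with 340 CPM, beside 6450 and 4247 CPM in B and C.

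Cdc20, the activator of the anaphase-promoting complex, had light levels of 925, 890 and 817 CPM in GV and 26.9, 40.8 and 84.1 CPM in MII gradients. The change was -4.24 (SE 0.34, limma adjusted p 5.96e-06), with gradients far apart, while the transcriptome mean was 124 CPM in GV and 164 CPM in MII oocytes. Its heavy mean fell as well, from 665 to 183 CPM. Cdc20 shares exon sequence with Elovl1 on the opposite strand, and whether the authors counted by strand is not given in the sources used here. Exons of Uqcrc2, Tmem42, Ppie, Emg1, Yif1a, Fcf1, Orc6, Cnot7, Cnot9, Oosp3, Nlrp2, Rpl19, Ndufa9, Eef1d, Eif2b4, Rab3b, Trafd1, Kcng2 and Meg3, named below, also overlap another gene in GENCODE M21, which makes their reads uncertain to that extent. H2ax, Ezhip, Ftdc2, H1f10, H2az2 and Bc1 were not found there under these symbols, so their overlap was not checked. Ccnb1 encodes cyclin B1, the partner of Cdk1 in the kinase that drives entry into M phase. Its light level was 809, 1671 and 1153 CPM in GV and 425, 395 and 357 CPM in MII oocytes, a change of -1.56 (SE 0.26, limma adjusted p 0.000474) with no overlap. Its transcriptome level went from 3799 to 7992 CPM over the same step. Mad2l1, a spindle checkpoint protein, showed 65.1, 154 and 109 CPM in GV and 24.1, 21.6 and 25.7 CPM in MII light fractions (change -2.07), against transcriptome means of 854 and 1926 CPM. Mos, the kinase upstream of the MAP kinase pathway that holds the metaphase II arrest, fell from 3166, 2798 and 2644 CPM to 856, 960 and 1343 CPM (change -1.47). Bub1b, another checkpoint gene, fell by 1.96 and had 586 CPM in GV and 983 CPM in MII transcriptomes. Its heavy mean fell from 969 to 353 CPM.

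Of the 65 tested genes of a list for the meiotic cell cycle and spindle, 7 were called higher and 13 lower, with a list median of -0.34; these counts lie near the shares over all genes tested (12.2% and 20.0%). The transcript of Cdk1, the partner kinase of cyclin B1, moved the other way to Ccnb1. It rose from 112, 91.8 and 105 CPM to 684, 812 and 665 CPM in the light fractions (change 2.80, SE 0.22, limma adjusted p 5.18e-06). Its heavy mean rose too, from 89.0 to 329 CPM, while its transcriptome means were 256 CPM in GV and 25.5 CPM in MII oocytes. Mapk3, the MAP kinase ERK1, rose from 497, 315 and 365 CPM to 5408, 3433 and 5044 CPM (change 3.56). Its heavy mean rose from 600 to 2211 CPM. Anapc11, a subunit of the anaphase-promoting complex, rose by 2.38. Spc24, of the kinetochore's NDC80 complex, fell by 2.65, with a transcriptome change of -3.44.

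A list of 14 transcripts with known translational activation in maturation held 8 called lower and 0 called higher, with a median light change of -1.14 against -0.12 over all genes. Over all genes tested 20.0% were called lower and 12.2% higher, and the difference was not tested. The members of this and the other lists were chosen with earlier results of these data known, so list counts are descriptions. The 8 were Plat, Tex19.1, Bub1b, Orc6, Ccnb1, Mos, Btg4 and Cnot7. With all 8 stages in the fit, Bub1b (limma adjusted p 0.6), Orc6 (0.354), Mos (0.429), Btg4 (0.331) and Cnot7 (0.402) were not called. Of the 8, Btg4 and Cnot7 lay closest to the threshold, both at -1.14, and edgeR on recovered reads called 7 of the 14. From fractions 2 and 3 alone the change of Btg4 was 0.57 (limma adjusted p 0.120). Tex19.1 had light levels of 73.9, 82.2 and 209 CPM in GV and 14.1, 4.92 and 8.06 CPM in MII oocytes. Orc6, of the origin recognition complex, had 66.8, 67.3 and 128 CPM in GV and 26.2, 27.2 and 20.7 CPM in MII oocytes. Neither gene's stages overlapped. The 6 members that did not pass were Dcp1a (change 0.13), Dcp2 (0.70), Cnot6l (-0.29), Dazl (0.32), Tpx2 (-0.54) and Slbp (-0.56).

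Stored transcripts of this kind are known to carry a U-rich cytoplasmic polyadenylation element in the 3′ UTR, near the poly(A) signal. The sequences TTTTAT and TTTTAAT, forms of this element, were searched on the sense strand of the last 100 bases of the annotated 3′ UTR (GENCODE M21, build GRCm38). In the list, 5 of 14 transcripts held one, and the last match of each is shown with 30 bases in all, the match in capitals.
Plat: agtatatttataTTTTAATctattttagtt
Btg4: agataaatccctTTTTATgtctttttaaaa
Dcp1a: gcaaatatatttTTTTAATaaaatttcaaa
Orc6: tggttttttaaaTTTTATttcactaaatgt
Bub1b: tttcactgtgtaTTTTATaataaaatagtt
These stretches lie on the plus strand at chr8:22782744-22782773 (Plat), chr9:51119797-51119826 (Btg4), chr14:30527009-30527038 (Dcp1a), chr8:85308005-85308034 (Orc6) and chr2:118641553-118641582 (Bub1b). Of the 5, all but Dcp1a were called lower in the light fractions.

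Over larger sets the share of transcripts with either sequence differed between the classes. It was 34.1% (232 of 680 with an annotated window) for genes that fell in the light fractions with a transcriptome change above -1. It was 11.4% (139 of 1223) for genes that fell with a transcriptome change of at most -1, and 14.3% (173 of 1209) for genes called higher. Risen genes differed by transcriptome change too. The share was 26.95% (45 of 167) at a change of at least 1 and 12.3% (128 of 1042) at a change below 1. All tested genes gave 19.3% (1896 of 9841) and all annotated genes with a window 17.7%. A match describes letters in a window and does not show a working element, and the shares were not tested.

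**Figure D2:**
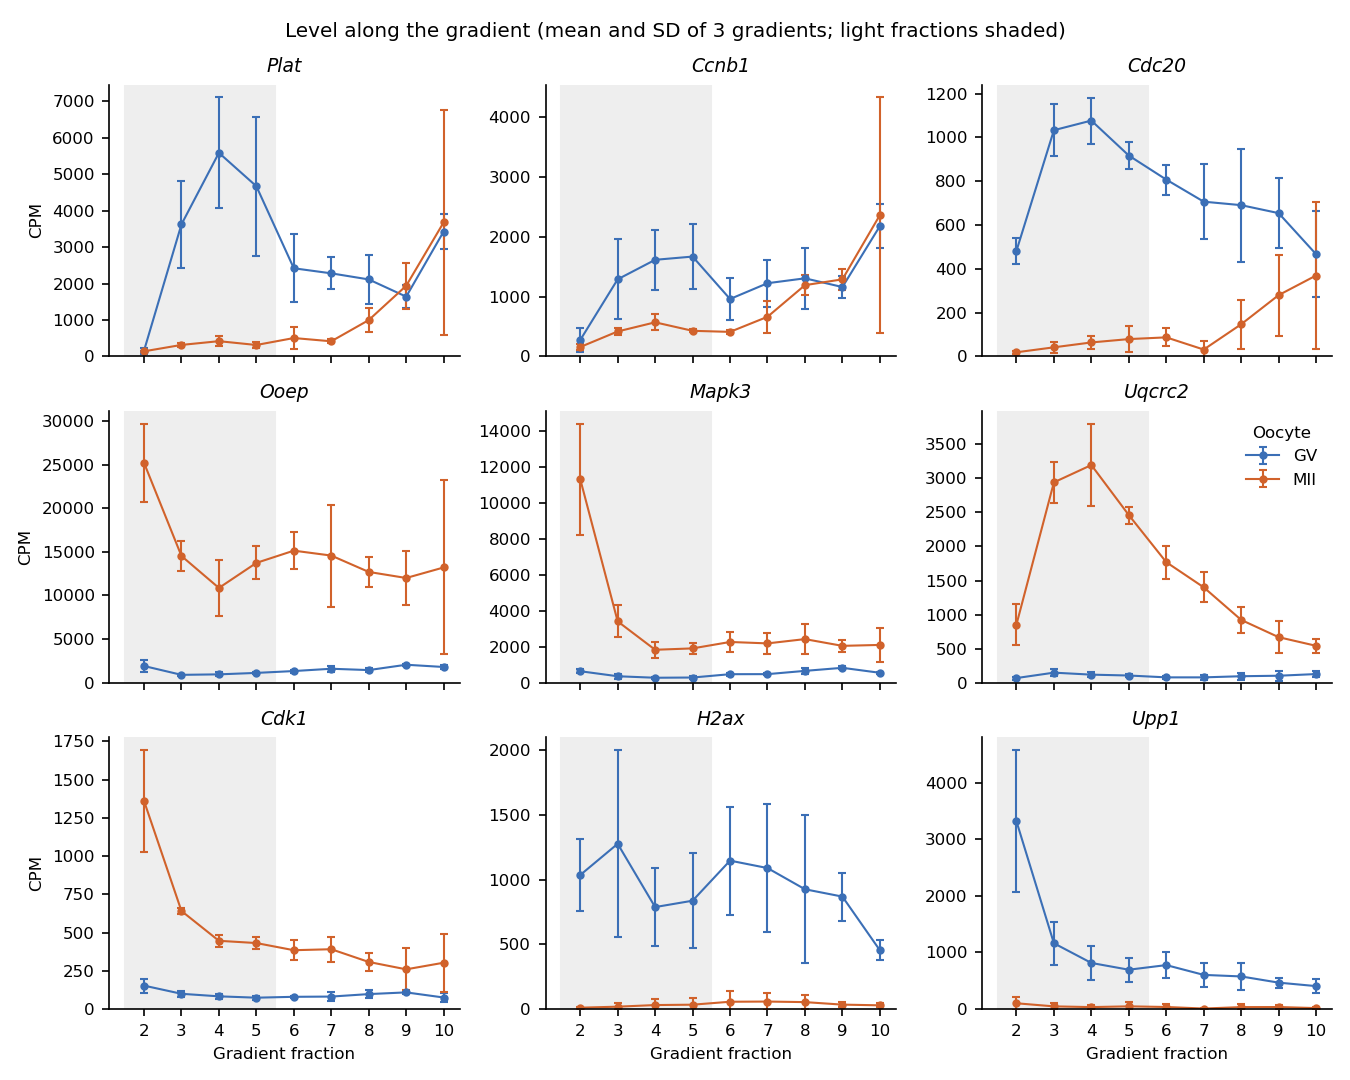
CPM of 9 genes along fractions 2 to 10 of GV and MII gradients, as the mean and SD of 3 gradients, with the light fractions shaded. Plat, Ccnb1 and Cdc20 drop in the shaded fractions of MII oocytes and climb toward fraction 10, Ooep, Mapk3, Uqcrc2 and Cdk1 lie above GV oocytes in the shaded fractions, and H2ax and Upp1 lie below GV oocytes across the gradient.

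Light changes were ranked among called genes with no overlap between stages and at least 10 CPM in the higher group. The 10 largest rises among them were those of Rln3, Ogdh, Uqcrc2, Prmt5, Tmem50a, Htr5b, Timm8a2, Asns, Tmem42 and Ooep, with changes from 4.84 down to 3.72. Rln3, which encodes the peptide hormone relaxin 3, had 10.8, 11.9 and 11.8 CPM in GV and 409, 297 and 375 CPM in MII gradients (SE 0.25, limma adjusted p 3.96e-07). The transcriptome means were 17.7 and 26.6 CPM. Ogdh, a subunit of the 2-oxoglutarate dehydrogenase complex of the citric acid cycle, went from 33.7, 92.7 and 65.6 CPM to 1324, 1732 and 971 CPM. Uqcrc2, a core subunit of respiratory complex III, went from 88.7, 144 and 97.4 CPM to 2499, 2468 and 2121 CPM. That these light stages do not overlap was a condition of the ranking. Heavy means rose as well, from 28.8 to 377 CPM for Rln3, 59.7 to 566 CPM for Ogdh and 96.4 to 1060.5 CPM for Uqcrc2. In MII oocytes Uqcrc2 was most abundant in fractions 3 and 4 (2941 ± 301 and 3195 ± 607 CPM) and lowest in fraction 10 among fractions 3 to 10 (542 ± 106 CPM).

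The subcortical maternal complex is a protein assembly under the oocyte membrane needed for early cleavage. Of 16 tested members of a list that joins this complex and the Nlrp family, 6 were called higher and 1 lower, beside 12.2% and 20.0% over all genes tested, with a median of 0.67; the difference was not tested. Ooep had 1366, 1252 and 1057 CPM in GV and 16776, 14602 and 16850 CPM in MII light fractions (change 3.72, SE 0.18, limma adjusted p 3.96e-07). Heavy means were 1650 and 13519 CPM, while the transcriptome mean was 2815 CPM in GV and 1230 CPM in MII oocytes. Padi6 rose from 2059, 1813 and 2052 CPM to 5354, 7894 and 5750 CPM (change 1.66), with transcriptome means of 2579 and 686 CPM. Zbed3, also of the complex, had 20560, 15041 and 16104 CPM in GV and 41210, 42017 and 37006 CPM in MII oocytes. Its call (change 1.23) was lost with no filter on low values, where the limma adjusted p was 0.0656. Under quantile normalization its change was 0.00. That method gives a gene with the same rank in every gradient the same value, so it cannot show a change of such a gene. Nlrp4a rose by 1.40 and Nlrp2 fell by 1.53, and Nlrp5 rose from 35, 41.1 and 26.4 CPM to 75.5, 66.2 and 96.7 CPM. Tle6 had a change of -0.38 and Khdc3 of 0.55. Reads of Nlrp genes are uncertain where near-identical family members share sequence.

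**Figure D3:**
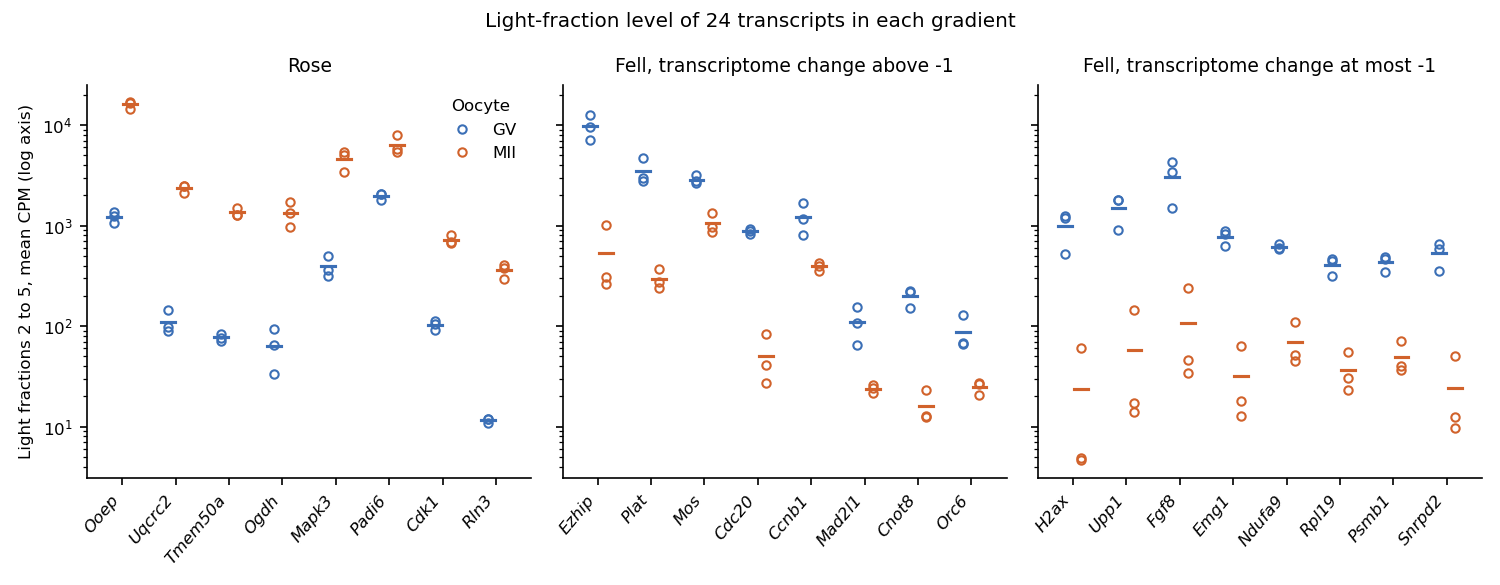
Light level (mean CPM of fractions 2 to 5, log axis) of 24 genes in GV and MII oocytes, in panels for genes that rose, genes that fell with a transcriptome change above -1, and genes that fell with a transcriptome change of at most -1. Circles are the 3 gradients and bars their mean, and the stages do not overlap for any gene shown.

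The largest falls, ranked under the same conditions, were those of H2ax, Upp1, Fgf8, Qtrt1, Ppie, Emg1, Yif1a, Fcf1, Snrpd2 and Mok, from -6.17 to -4.64. All 10 had a transcriptome change of at most -2.23. H2ax, the histone variant that marks DNA breaks, had 1237, 519 and 1195 CPM in GV and 4.86, 4.64 and 61.2 CPM in MII light fractions (SE 0.73, limma adjusted p 4.56e-05). Upp1, uridine phosphorylase, had 1802, 899 and 1789 CPM and then 14.1, 17.1 and 144 CPM, with transcriptome means of 273 and 2.30 CPM. Fgf8, a growth factor that oocytes send to cumulus cells, had 4312, 1500 and 3407 CPM and then 46.5, 33.9 and 241 CPM. The stages lie far apart in each, and MII gradient C was the highest MII value in all 3. Without it the changes were -7.32 for H2ax, -6.43 for Upp1 and -6.11 for Fgf8. Without gradient C the changes of Qtrt1, Emg1, Yif1a, Fcf1, Snrpd2 and Mok lay between -5.40 and -5.76. Leaving out another gradient made some falls smaller: Mok had -3.92 and Upp1 -4.80 without MII gradient A, and H2ax -5.59 without MII gradient B. Each of these genes kept its call in every such fit. Emg1 and Fcf1 serve ribosomal RNA processing, Snrpd2 the spliceosome and Qtrt1 tRNA modification.

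Genes of protein synthesis and energy metabolism lay mostly on the falling side. Over all genes tested, 20.0% were called lower and 12.2% higher, and the counts called higher in these lists lie near that share. Differences from these shares were not tested. Of 80 tested cytosolic ribosomal protein genes 48 were called lower and 9 higher (median -1.23), of 76 mitochondrial ribosomal protein genes 34 lower and 11 higher (median -0.75), and of 77 nuclear genes of oxidative phosphorylation 30 lower and 10 higher (median -0.74). Rpl19 fell from 463, 315 and 449 CPM to 30.3, 23.4 and 55.7 CPM, with a transcriptome change of -5.35. Ndufa9, of respiratory complex I, fell from 659, 581 and 598 CPM to 45.0, 51.2 and 111 CPM. Both had stages far apart. Members of the same lists moved the other way: Rpl11 rose by 2.59, Mrpl45 by 3.15, Ndufa10 by 3.61 and Uqcrc2 by 4.44. Ndufa10, also of complex I, had 127, 110 and 141 CPM in GV and 1548, 1685 and 1419 CPM in MII light fractions. Ribosomal protein genes have many processed pseudogenes, so their reads are uncertain where copies are near-identical.

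Translation factors and the proteasome gave a like split, beside 20.0% called lower and 12.2% higher over all genes tested. Differences from these shares were not tested here either. Of 50 tested initiation and elongation factor genes 21 were called lower and 3 higher (median -0.56). Eef1d, of the elongation factor 1 complex, fell by 3.01, and Eif2b4, a subunit of the exchange factor for eIF2, by 2.78. Eif3e, of initiation factor 3, rose from 17.8, 16.0 and 20.4 CPM to 89.5, 101 and 70.8 CPM, while its transcriptome change was -0.08. Of 41 proteasome genes 16 were called lower and 4 higher (median -0.50). Psmb1 and Psmb4, of the catalytic core's beta rings, fell by 3.15 and 3.27, and Psma7, of its alpha rings, rose from 832, 470 and 781 CPM to 3228, 2892 and 2938 CPM (change 2.16). Of 21 histone genes 6 were called lower and 0 higher (median -0.68), among them H2az2 (change -3.26) and H1f10 (-3.48).

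**Figure D4:**
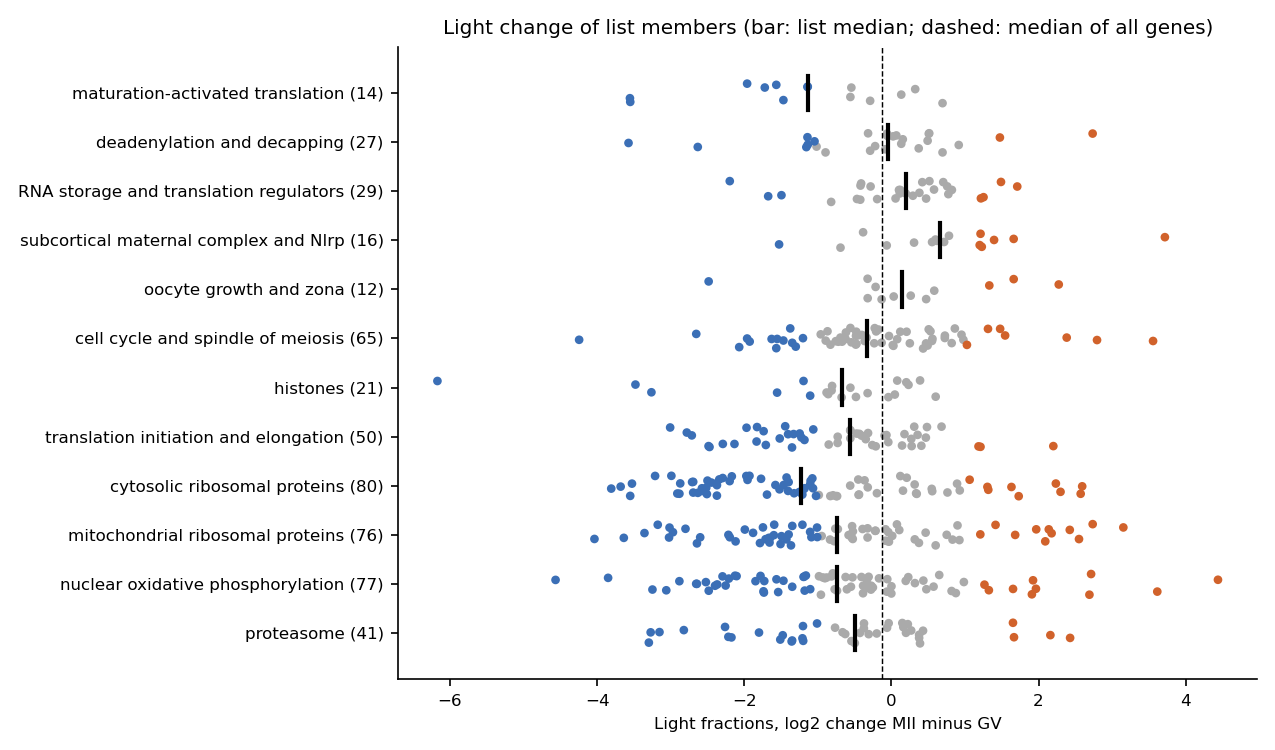
Light change of the tested members of 12 gene lists, each point 1 gene, with genes called higher in orange, called lower in blue and not called in grey. Bars mark list medians and the dashed line the median over all genes, -0.12; the lists of cytosolic ribosomal proteins and of maturation-activated transcripts have the lowest medians, and the subcortical maternal complex list the highest.

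Genes that store, mask or shorten transcripts were called in both directions, at shares near or below those over all genes tested (12.2% higher and 20.0% lower). Of 29 tested RNA storage and translation regulators 4 were called higher and 3 lower (median 0.20). Zar1, which helps to store maternal transcripts, rose from 1750, 1776 and 1553 CPM to 5715, 5426 and 5465 CPM (change 1.71), and Ybx2, a binding protein of stored transcripts, fell by 1.68. Cpeb1, which binds the polyadenylation element, had a change of 0.12 and Ddx6, a helicase of storage particles, of -0.28. Of 27 genes for deadenylation and decapping 2 were called higher and 6 lower. That list's median was -0.05 as deposited and 0.12 after quantile normalization. Cnot8, a deadenylase of the CCR4-NOT complex, fell from 152, 219 and 224 CPM to 12.5, 12.7 and 23.3 CPM (change -3.57) while its transcriptome change was 0.16. Its heavy mean fell from 238 to 76.7 CPM. Cnot9, another subunit, rose by 2.74. Of 12 oocyte growth and zona genes Oosp2 (change 2.27), Bmp15 (1.66) and Zp2 (1.33) rose and Oosp3 fell by 2.48. The zona genes Zp1 (change 0.47) and Zp3 (0.58) and the growth factor gene Gdf9 (-0.21) were not called.

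Setting the light change against the transcriptome change in 1 model asks which transcripts moved in the light fractions beyond their change in the transcriptome pools. Values of the pools are CPM amplified from poly(A) tails and give no amount of RNA. Among 12705 genes, 3551 were called higher (27.9% of the genes tested) and 1705 lower (13.4%), with a median of 0.25. Of the calls, 67.6% were higher as deposited, and after quantile normalization 49.3%, when the median was -0.12. This test uses the same light libraries as the light change, so its values stand beside those above and add no separate evidence. The largest gains beyond the transcriptome were those of Cox7c (6.85), Fbxw26 (6.42), Cdk1 (6.14), Ftdc2 (5.75) and Rab3b (5.59). Cox7c, of cytochrome c oxidase, had 11.5, 10.9 and 12.2 CPM in GV and 47.2, 37.8 and 61.6 CPM in MII light fractions, with transcriptome means of 73.3 and 1.83 CPM. Fbxw26, an oocyte F-box gene, had 264, 422 and 218 CPM and then 934, 1097 and 979 CPM, with transcriptome means of 2660 and 106 CPM. In both, light and transcriptome levels moved in opposite directions. Heavy means rose in both, from 27.4 to 81.2 CPM for Cox7c and from 313 to 425 CPM for Fbxw26.

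The largest losses beyond the transcriptome were those of Trafd1 (-5.47), Tmem128 (-5.43), Kcng2 (-5.24), Omt2a (-4.75) and Ezhip (-4.70). Ezhip, an inhibitor of the Polycomb methyltransferase EZH2, had 12496, 7036 and 9603 CPM in GV light fractions and 262, 311 and 1014 CPM in MII oocytes. The heavy means of Ezhip were 11774 and 1761 CPM and its transcriptome means 958 and 1162 CPM. Omt2a had 1053, 620 and 1028 CPM and then 51.4, 66.9 and 103 CPM, with transcriptome means of 1270 and 2795 CPM. The light stages did not overlap in either. Kcng2 rested on single gradients: its light values were 216, 49.8 and 170 CPM and then 28.5, 1.39 and 65.1 CPM, and without MII gradient B its light change was -1.48 with a limma adjusted p of 0.0619. Among the lists, 12 of 14 maturation-activated transcripts were called lower beyond the transcriptome and 0 higher. In the opposite direction, 67 of 77 oxidative phosphorylation genes, 57 of 76 mitochondrial and 59 of 80 cytosolic ribosomal protein genes were called higher. Over all genes in this test 13.4% were called lower and 27.9% higher.

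Whether transcripts moved between the light and the heavy side was tested by the light minus heavy difference in each gradient. Of 12419 genes, limma called 0 higher and 0 lower (0.0% in either direction), the lowest adjusted p being 0.067. Without adjustment 1994 genes had a p under 0.05, 1292 toward the light and 702 toward the heavy side. Plat had the difference -2.77 (SE 0.45, limma adjusted p 0.131), Mad2l1 -2.46, Oosp3 -2.43 and Omt2a -2.45, all toward the heavy side and none called. Their heavy means were 2376 and 1506 CPM for Plat, 171 and 223 CPM for Mad2l1, 900 and 899 CPM for Oosp3 and 2031 and 910 CPM for Omt2a. Leaving out fraction 10 also gave 0 calls and 1757 genes at an unadjusted p under 0.05, and leaving out fractions 7 and 10 gave 0 calls and 1735 such genes; both were chosen after seeing the data, because single MII gradients stood apart there. A pseudocount of 5 called 14 genes toward the light and 33 toward the heavy side. A fit with light and heavy means as separate samples called 14 and 82, but it ignores that both means come from the same gradient. Plat was called in both settings (limma adjusted p 0.0387 and 0.0127).

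Along the gradient, the falling genes differed by class as a description, since fractions 2 to 5 chose them and the heavy fractions come from the same gradients. The 787 genes with a transcriptome change above -1 had median changes of -1.45 in fraction 3, -1.60 in fraction 5, -0.68 in fraction 9 and -0.23 in fraction 10. The 1522 genes with a transcriptome change of at most -1 had -1.81, -1.75, -2.28 and -2.07 in the same fractions. Over all genes tested the medians were -0.15, -0.22, -0.39 and -0.27. Without MII gradient A, the fraction 10 medians were 0 for the first class, -2.18 for the second and -0.15 for all genes. In the first class the median fall was smaller in each of fractions 8 to 10 than in any of fractions 2 to 7. Risen genes with a transcriptome change below 1 had medians of 1.62 in fraction 4 and 0.59 in fraction 10 (0.64 without MII gradient A). In fraction 7, leaving out MII gradient C moved the median of all genes from -0.79 to -0.42 and that of the first falling class from -1.47 to -1.17.

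**Figure D5:**
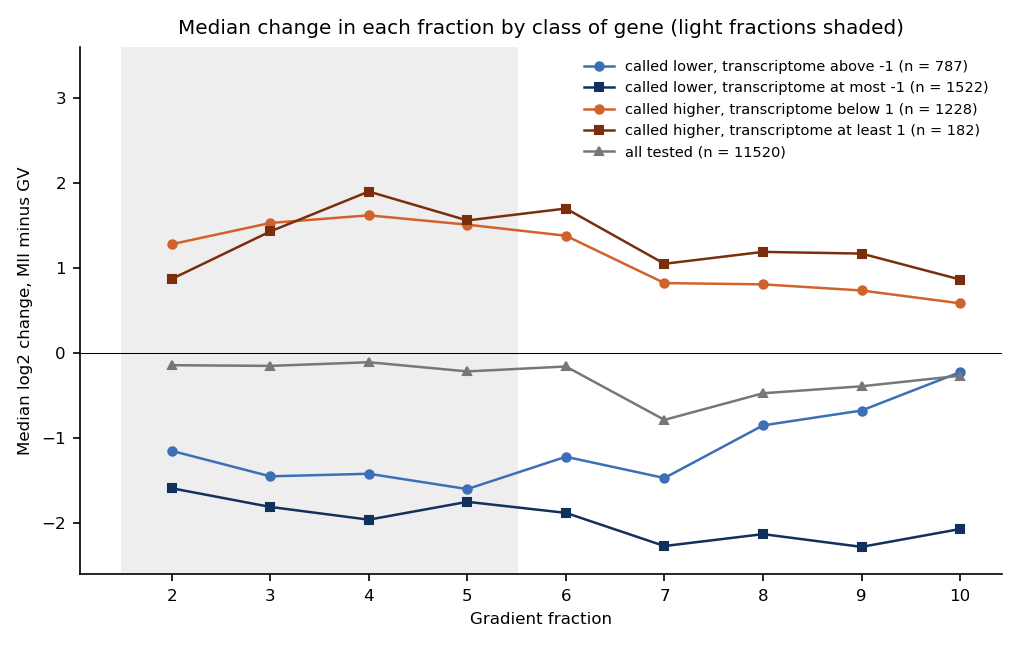
Median log2 change from GV to MII oocytes in each of fractions 2 to 10 for genes called in the light fractions, split by their transcriptome change, and for all genes tested. The class that fell with a transcriptome change above -1 moves from -1.60 in fraction 5 to -0.23 in fraction 10 (0 without MII gradient A), and the class with a transcriptome change of at most -1 lies between -2.28 and -1.59 in every fraction shown.

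The fallen genes encoded shorter proteins at the median. Proteins encoded by genes called lower had a median of 368.5 residues (annotated coding sequences in GENCODE M21, 92% of the genes matched), against 447 for genes called higher and 469 for all genes tested. The fallen genes with a transcriptome change above -1 had a median of 445 residues and those that fell with the transcriptome 341 residues. These medians were not tested. The share of 18S ribosomal RNA in light libraries, as the mean over fractions 2 to 5 of a gradient, was 0.108, 0.0303 and 0.0735% in GV and 0.179, 0.242 and 0.232% in MII oocytes. Its part in the results was not tested; leaving this RNA out of the CPM gave 1414 genes higher and 2307 lower.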

How the data were processed

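The authors deposited 1 table of CPM values per gene symbol and library (15854 symbols, 272 libraries). Per the submitters' processing notes, which give no order, the tools were Trim Galore 0.6.7, FastQC, HISAT2 2.2.1, featureCounts 2.0.1 and edgeR, with the build GRCm39; annotation and strand setting are not given in the sources used here. Of 76 groups of symbols with identical values 1 symbol each was kept, which left 15771. Columns recorded as signal (9, none of GV or MII oocytes) were scaled by the authors like the CPM columns and enter only the alternative with all 8 stages. All values of the libraries used were whole reads within 0.05 reads, so total reads could be recovered; amplified reads carry no molecular identifiers. Replicate libraries were compared by a chi-square test of reads, and the lowest value per degree of freedom, 83.0, left no pair within sampling noise.

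CPM of fractions 2 to 5 was averaged per gradient, with equal weight for each fraction, and log2(CPM + 1) was tested with limma 3.58.1 (lmFit and eBayes with trend, R 4.3.3), GV and MII samples only. A gene entered with at least 1 CPM in at least 3 samples. A call needed a Benjamini-Hochberg adjusted p under 0.05 over all genes tested and a log2 change of at least 1. The pseudocount understates changes of low genes. The change beyond the transcriptome was a stage by library-kind interaction over 6 gradients and 8 pools, and the light against heavy shift the difference of light and heavy means (fractions 6 to 10) per gradient. edgeR 4.0.16 and DESeq2 1.42.0 on recovered reads summed over fractions 2 to 5 were alternatives. The scripts were tested on simulated data. Fraction 1, whose libraries held 0.0105 to 12.0 M reads, entered only the alternative with fractions 1 to 5.

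Genes were named by size of change among called genes (10 in each direction for the light change and 5 for the others, with at least 10 CPM in the higher group). For the light change their gradients also had to show no overlap between stages. Others were named as called members of 16 lists (up to 4 in each direction) or for a known role in maturation. Remaining list members were named after their values were seen. The members and lists were chosen with earlier results of these data known. Mitochondrially encoded genes (13) and a RefSeq protein table were not used here, and some genes are not reported here; coding lengths and 3′ UTR sequences came from GENCODE M21 on GRCm38, matched by symbol.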

Additional observations from a re-analysis of the deposited data

Results flagged for a closer look

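In 102 groups of 4 transcriptome pools (named genes, each stage), 4 had 1 pool far from the other 3; chance alone flags about 1 in 20 groups. Zar1 had 1171 CPM in 1 MII pool, against 529 to 627 CPM in the others. Fbxw26 had 2158 CPM in 1 GV pool, against 2791 to 2866 CPM, and 121 CPM in 1 MII pool, against 99.1 to 101 CPM. Nlrp5 had 1135 CPM in 1 GV pool, against 1076 to 1080 CPM. The light gradients, 3 per stage, were too few for this check.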

How the results depend on the processing

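Leaving out single gradients gave 1175 to 1552 genes higher and 1970 to 2335 lower in the light fractions, 3469 to 3703 higher and 1611 to 1856 lower beyond the transcriptome, and 0 shifts between light and heavy in either direction. Light counts moved by over 1.5 times only with all 8 stages in 1 fit (355 higher, 719 lower), which also ended the calls of 30 of 138 named results; the cause was not tested. edgeR gave 1725 higher and 2080 lower, DESeq2 1871 and 2130, and quantile normalization 1825 and 1867. Beyond the transcriptome, quantile normalization gave 2633 higher and 2709 lower. The shift gave 14 higher and 33 lower with a pseudocount of 5 and 2 and 2 with all 8 stages. It gave 14 and 82 with light and heavy as separate samples, a fit that ignores the shared gradient. The light change reversed for Btg4 from fractions 2 and 3 (0.57) and for the noncoding RNA Bc1 from fractions 1 to 5 (0.69); the cause was not tested.

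With the gradient letter as a replicate block the light counts were 1411 higher and 2286 lower, those beyond the transcriptome 3540 higher, and the shift again 0; it changed none of 169 calls of named results. Deviations of gradients with the same letter had correlations of -0.08 (A), 0.23 (B) and -0.09 (C). Those of different letters ran from -0.28 to 0.29, so no pairing by letter was seen. With 3 gradients per stage this check could not exclude one. The CPM without ribosomal RNA removed only 18S RNA. With 3 gradients per stage and r of 0.83 to 0.956 between light libraries, smaller changes may not have been detectable, and low genes are understated.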

Other observations

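Transcripts differed in where among the light fractions they were most abundant. At the GV stage 1688 of the 11520 genes tested had their highest light CPM in fraction 2 in all 3 gradients, and 6595 in fractions 3 to 5 in all 3. The median protein length was 231 residues for the first and 552 residues for the second. At the MII stage the numbers were 1873 genes with 250 residues and 7025 genes with 559 residues. Among genes called lower in the light fractions, 28.3% had their highest GV value in fraction 2 in all 3 gradients, against 14.7% of all genes tested. Among genes called higher, 20.6% had their highest MII value there, against 16.3% of all genes tested. A highest MII value in fractions 3 to 5 in all 3 gradients was also more frequent among them, 65.5% against 61%. At the GV stage 14.1% of them were highest in fraction 2, against 14.7%. Of the genes called lower, 25.7% were highest in fraction 2 at the MII stage. These are descriptions with no test.

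Single genes show the same difference of position. Mapk3 had 11347 ± 3090 CPM in fraction 2 of MII gradients and 1836 ± 448 CPM in fraction 4 (SD, n = 3). Cdk1 had 1361 ± 334 CPM in fraction 2 and 446 ± 41.1 CPM in fraction 4, and Ooep 25198 ± 4499 CPM and 10859 ± 3177 CPM. Uqcrc2 had the reverse order, with 854 ± 304 CPM in fraction 2 and 3195 ± 607 CPM in fraction 4. In GV oocytes Upp1, uridine phosphorylase, had 3316 ± 1254 CPM in fraction 2 and 814 ± 301 CPM in fraction 4.

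Noncoding RNAs are often used as references for RNA without ribosomes. Over all genes tested, 12.2% were called higher and 20.0% lower. Of 11 tested members of the noncoding list limma called 2 lower, Meg3 (14.6, 10.8 and 25.5 CPM in GV and 1.86, 2.06 and 1.64 CPM in MII light fractions, change -2.57) and Bc1 (3.55, 2.99 and 4.19 CPM and then 0.418, 0.290 and 0.353 CPM, change -1.75), and 0 higher. The call of Bc1 was lost with a pseudocount of 5 (change -0.68). Of 10 oocyte marker genes 4 were called higher and 1 lower; Dppa3, a maternal factor protecting DNA methylation in the zygote, rose from 326, 396 and 277 CPM to 1135, 825 and 783 CPM (change 1.45). Of the 7 cumulus and granulosa cell markers that the table holds, 4 were tested in the light fractions. limma called 0 of them, and edgeR and DESeq2 on recovered reads called Col4a1 higher (adjusted p 0.0384 and 0.0044; limma 0.107). Inha, the inhibin alpha subunit, had 6.27, 9.72 and 14.4 CPM in GV and 6.32, 9.60 and 8.62 CPM in MII light fractions.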
